A study of Mus musculus with 2 samples.

Results

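Atp1b1, Atp1b2, Atp1b3, Fxyd1, Fxyd5, Fxyd6 and Fxyd7 encode the beta subunits of the sodium-potassium ATPase and FXYD proteins that modulate it. They were chosen by name, as the non-control features of both arrays whose gene name equals one of these 7 symbols. This rule uses no measured value, but the symbols were chosen with earlier results of these data known. Each of the 7 genes was read by 1 probe in 1 spot per array, 7 of 55681 probes, and all 7 probes were well above background on both arrays. The 7 genes are among 25915 genes and transcripts that were measured on both. Total RNA was taken from the hippocampus of mice of the outbred ICR stock, 8 weeks after 5/6Nx or after a sham operation. The term 5/6Nx commonly stands for 5/6 nephrectomy, an operation that takes away most kidney tissue and serves as a model of chronic kidney disease. One group was the 5/6Nx sample (1 array) and the other the sham sample (1 array). The labels give no allele, transgene or drug for either group and do not state the age or sex of the mice or how many animals stand behind each array, and the extraction protocol speaks of cells without naming a type.

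The sodium-potassium ATPase is the membrane pump that exports sodium and imports potassium at the cost of ATP. It sets the gradients on which nerve impulses, transmitter uptake and the clearance of potassium after neuronal firing depend, and it takes a large share of the energy used by the brain. The alpha subunit carries out the transport and splits ATP. The beta subunit is a glycoprotein that the alpha subunit needs to fold and to reach the cell surface. FXYD proteins are small membrane proteins, named after a conserved run of amino acids, that bind the pump in some tissues and alter its affinity for ions or its turnover.

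A single array stood for each group, so the groups could not be tested against each other, no p-value was computed and every difference describes these 2 arrays. Differences are given as log2 values, 5/6Nx minus sham, with each array's signal set relative to its own 75th percentile (1263 in 5/6Nx and 1452 in sham). Genes at least 2-fold apart are counted as higher or lower, by size alone. Both arrays shared 1 slide and 1 scan, and 72.5% of the non-control spots were well above background in 5/6Nx, against 72.7% in sham. Over all genes measured the median difference was 0.05, with quartiles at -0.23 and 0.35 and an SD of 0.60, and 55.4% of the genes lay above 0. All 14 general neuronal and all 14 general astrocytic markers examined were above background on both arrays, which shows brain RNA; no marker particular to the hippocampus was examined. Of 16 measured markers of the choroid plexus epithelium 14 were at least 2-fold higher in 5/6Nx, and of 13 markers of leptomeningeal fibroblasts, which lie in the brain's soft coverings, 9 were at least 2-fold lower.

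The probes are 60 bases long and read the sense strand of the transcript, and their places are given on the mm9 build, as in the scanner files. The probe of Fxyd7 is shown whole because the largest difference among the 7 genes rests on it, and stretches of 30 bases are shown for Fxyd6 and Fxyd5, whose differences came next, and for Fxyd1 and Atp1b2. Capitals mark AATAAA, the usual signal for cleavage and polyadenylation near the end of a messenger RNA.
Fxyd7, whole probe, chr7:31829612-31829767, minus strand: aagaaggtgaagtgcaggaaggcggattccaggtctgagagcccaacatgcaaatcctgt
Fxyd6, bases 31 to 60 of the probe at chr9:45204134-45204193, plus strand: gggactgctgatctctgtcttgtgatctat
Fxyd5, bases 31 to 60 of the probe at chr7:31817824-31817883, minus strand: actggagggagtcaggcttaaggctaatgg
Fxyd1, bases 24 to 53 of the probe at chr7:31836699-31836758, minus strand: gctcagacctctAATAAAactcggttttcc
Atp1b2, bases 26 to 55 of the probe at chr11:69413253-69413312, minus strand: agggtaaagtacAATAAActgagagcgatt

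The Fxyd7 probe covers 156 bases of the genome with 60 bases of sequence, so 96 bases are skipped, as a probe across an exon junction would do. The other 6 probes each match an unbroken stretch of 60 bases. Atp1b1 was read at chr1:166368263-166368322 and Atp1b3 at chr9:96233316-96233375, both on the minus strand. AATAAA was searched on the sense strand of the 7 probes, and on both strands only for the share over all probes. It was found in the sense strand of the probes of Fxyd1 and Atp1b2, and 10.1% of all 55681 probes hold it there (13.5% on either strand). The other 5 probes do not hold these letters in the sense strand. Among the 21 pairs of the 7 probes the longest shared run was 8 bases, so no probe shares a long stretch with that of another of the 7 genes.

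The beta subunits were close to the middle of all genes. Atp1b1 encodes beta 1, the most widespread form and the main one in neurons. Its processed signal was 118910 in 5/6Nx and 139385 in sham, and after scaling the difference was -0.03. Across all genes 94.4% had a difference at least as large in either direction. Atp1b3, which encodes beta 3, a form found in several brain cell types, had a signal of 5610 in 5/6Nx and 6203 in sham and a difference of 0.06. It was the only one of the 7 above 0, a sign that turned under median scaling and spike-in scaling, and 89.1% of all genes were at least as far from 0.

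Atp1b2 encodes beta 2, also known as AMOG, the adhesion molecule on glia. Its signal was 37571 in 5/6Nx and 50113 in sham. The difference was -0.21, a fold of 0.862, and 61.1% of all genes were at least as far from 0. The scanner software attaches an error to each processed signal, here close to 10.0% for each of the 7 spots, which amounts to 0.20 on the log2 difference of 1 spot on each array. This figure comes from the software's error model and leaves out the variation between animals. The difference of Atp1b2 was of about that size, while those of Atp1b1 and Atp1b3 were well within it. None of the 3 beta subunits was 2-fold apart, and their median difference was -0.03.

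**Figure D1:**
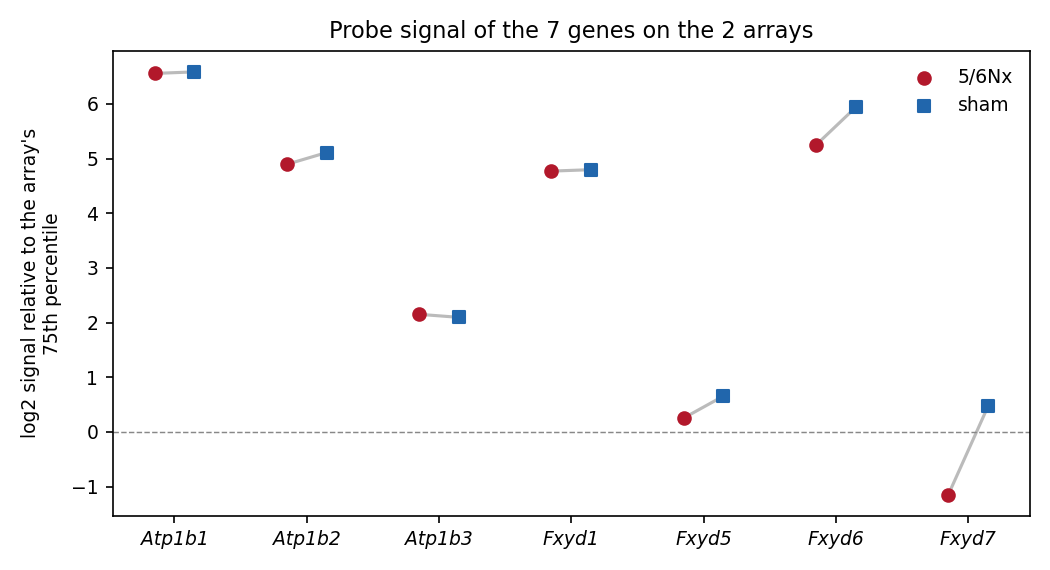
Signal of the probe of each of the 7 genes in 5/6Nx (red circles) and sham (blue squares), on a log2 scale relative to the 75th percentile of the array (dashed line at 0), 1 array per group. The grey line joins the same probe on both arrays. Fxyd7 stands below the percentile in 5/6Nx (-1.15) and above it in sham (0.47), while Atp1b1 stands at 6.56 in 5/6Nx and 6.59 in sham; heights of different genes come from different probes and are not to be compared.

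The FXYD genes spread more widely. Fxyd1 encodes phospholemman, which restrains the pump until it is phosphorylated and is expressed in glia and in the choroid plexus as well as in heart and muscle. Its signal was 34475 in 5/6Nx and 40342 in sham, with a difference of -0.03, a sign that turned under quantile scaling, lowess and the authors' table, and 94.9% of all genes were at least as far from 0. Fxyd5 encodes dysadherin, which is known for weakening adhesion between cells and is expressed in epithelia, endothelium and leukocytes. It had a signal of 1507 in 5/6Nx and 2288 in sham, and a difference of -0.40, against an error of 0.20 from the scanner's model. Of all genes 37.0% of all genes were at least as far from 0.

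Fxyd6 encodes phosphohippolin, an FXYD protein found mainly in the brain, the hippocampus among its sites. Its signal was 48019 in 5/6Nx and 89019 in sham. The difference was -0.69, a fold of 0.620, beyond 1.5-fold but short of 2-fold. Of all genes 6.81% had a lower value, and 17.2% were at least as far from 0 in either direction.

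Fxyd7 encodes a brain-specific FXYD protein of neurons and glia that lowers the pump's affinity for external potassium. Its signal was 571 in 5/6Nx and 2010 in sham. The spot's unsubtracted mean was 11.1 times the local background in 5/6Nx and 35.2 times in sham, so both values were clear of it. The difference was -1.62, a fold of 0.326, with 0.20 for the error of the scanner's model. Only 0.888% of all genes had a lower value, and 585 of 25915 genes (2.26%) were at least as far from 0 in either direction. Since the arrays hold bulk tissue, fewer cells of a type and less RNA per cell cannot be told apart, for this gene and for those that follow.

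Fxyd7 was thus the only one of the 7 genes at least 2-fold lower (1 of 7), and 0 of 7 were at least 2-fold higher. Among all genes measured, 3.29% were at least 2-fold lower and 4.89% at least 2-fold higher, 8.18% in either direction. In numbers these were 1268 genes higher and 852 lower, a split that moved with the scaling to 1004 higher and 1036 lower under quantile scaling, 901 and 1229 under median scaling and 793 and 1414 under spike-in scaling. At 3-fold, Fxyd7 was still counted (1 of 7 lower), against 0.945% of all genes. At 1.5-fold, Fxyd6 joined it (2 of 7 lower), against 8.93% of all genes lower at that size. The median of the 7 differences was -0.21, against 0.05 over all genes, and 1 of 7 lay above 0, against 55.4% of all genes. All 7 are among the 12957 genes above the median signal, whose median was lower, at -0.02. The median of the 4 FXYD genes was -0.55. Within the arrays, Fxyd7 stood 1.59 below Fxyd1, 1.21 below Fxyd5 and 0.93 below Fxyd6, each with an error of 0.29 from the scanner's model. The order of the 4 FXYD genes, from Fxyd7 over Fxyd6 and Fxyd5 to Fxyd1, was the same under all 12 settings of the processing tried. The settings use the same spots. Some cannot change a gene with 1 probe and others shift all genes by 1 constant, so in those the order could not change. Over these settings Fxyd7 ranged between -1.83 and -1.48, Fxyd6 between -0.91 and -0.63 and Fxyd5 between -0.62 and -0.40. Atp1b3 lay below 0 in 2 of the 12 settings and Fxyd1 above 0 in 3, while Atp1b1 lay below 0 in all 12, between -0.25 and -0.03.

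**Figure D2:**
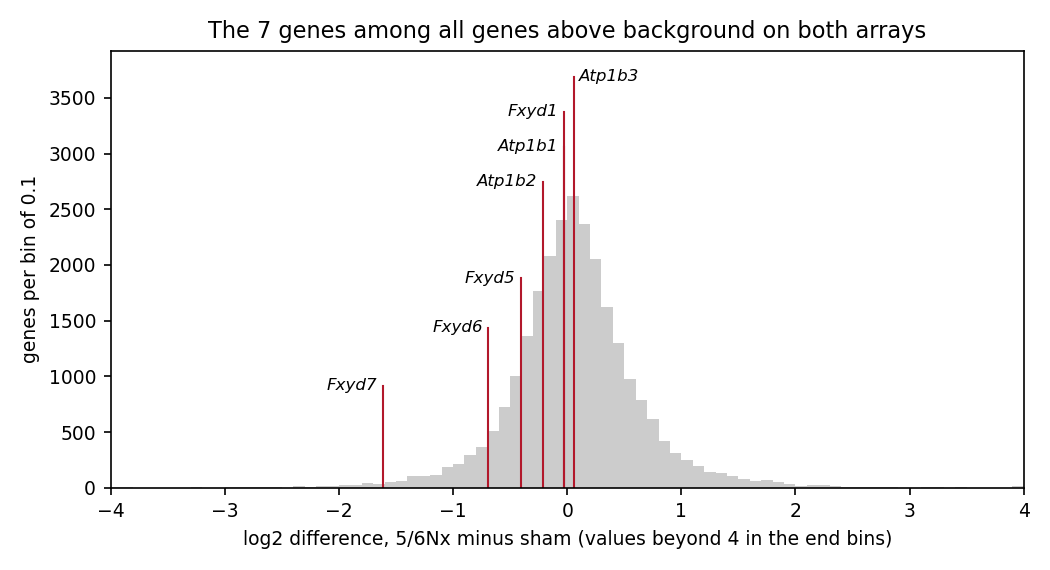
Number of genes (vertical axis) by log2 difference, 5/6Nx minus sham (horizontal axis, bins of 0.1), for the 25915 genes above background on both arrays. Red lines mark the 7 genes, with heights set for legibility only. Fxyd7 lies in the left tail at -1.62, Fxyd6 on the left flank at -0.69, and Atp1b1, Atp1b3 and Fxyd1 near the centre.

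**Figure D3:**
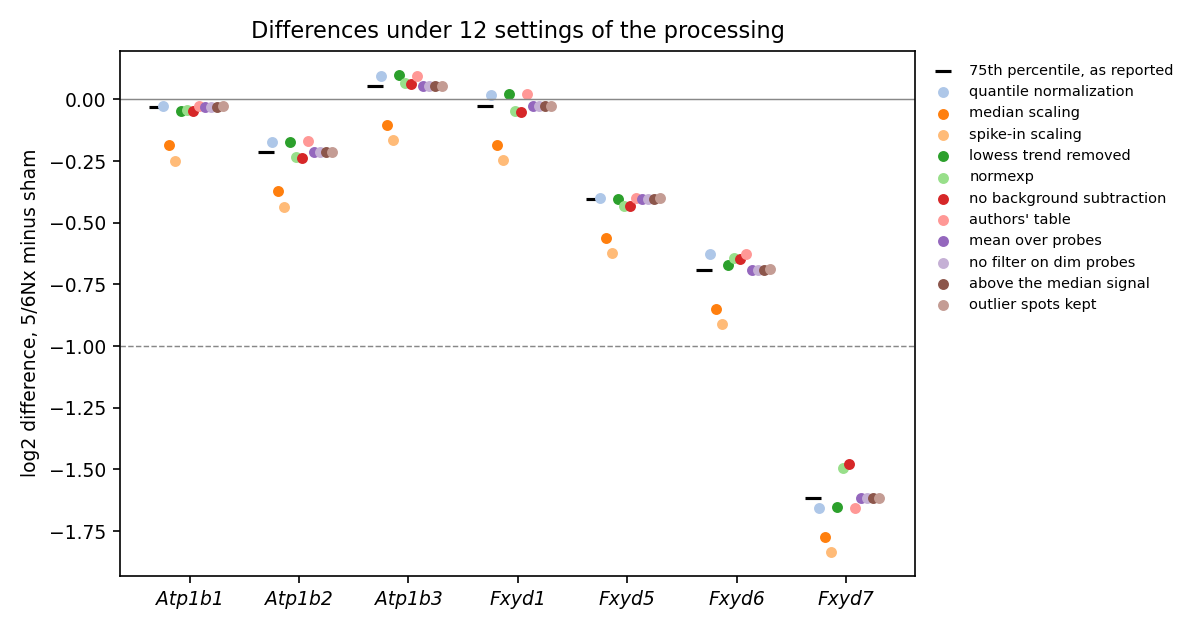
Log2 difference, 5/6Nx minus sham (vertical axis), of the 7 genes under 12 settings of the scaling, background correction and filters; the black bar is the value reported and the dashed line marks 2-fold lower. Fxyd7 stays below the dashed line in all 12, and the other 6 genes above it.

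Some of the FXYD genes are neighbours in the genome, in 1 group on chromosome 7 and another on chromosome 9, with unequal differences; Fxyd4 lies apart on chromosome 6. In the reference annotation of the mouse (GRCm38.p6, used for order only) Fxyd5, Fxyd7 and Fxyd1 follow each other on chromosome 7 with 0 other protein-coding genes between them, and Fxyd3 comes after 1 more gene, Lgi4. On mm9 the probes of these 4 FXYD genes span 40.8 kb, chr7:31817824-31858634. Their differences were -0.40 for Fxyd5, -1.62 for Fxyd7, -0.03 for Fxyd1 and -0.04 for Fxyd3. Fxyd6 and Fxyd2 are direct neighbours on chromosome 9, their probes within 14.2 kb. Fxyd6 stood at -0.69 and Fxyd2 at -0.02, and the first minus the second was -0.67, with an error of 0.29 from the scanner's model.

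Each of the 7 genes has 1 probe, so a spread between probes cannot be measured for them. Over 7995 genes with several measured probes, the median SD among the differences of the probes of a gene was 0.20. Other genes of the family gave the following values. Atp1a4, which encodes the catalytic subunit found in sperm, was dim. Its 2 probes share 54 of 60 bases. One had a signal of 145 in 5/6Nx and 50.5 in sham and a difference of 1.72. The other had 163 in 5/6Nx and was not well above background in sham (14.7). Set against the lowest signal well above background on the sham array (17.9), it was 10.4-fold higher in 5/6Nx after scaling. The first probe gave 3.30-fold, so the 2 probes share a direction but disagree in size. The unsubtracted spot means were at most 3.43 times the local background on these spots. Fxyd2, the gamma subunit best known from the kidney, had 2 probes with 39 bases in common, at -0.02 and -0.12, the first with a signal of 1985 in 5/6Nx and 2305 in sham. Fxyd3, a FXYD gene of epithelia, was dim at 65.5 in 5/6Nx and 77.4 in sham, with a difference of -0.04. Atp1b4 and Fxyd4 were not well above background on either array. Of these 5 genes 3 were measured on both arrays, 1 of them (Atp1a4) was at least 2-fold higher and 0 were at least 2-fold lower, with a median of -0.02.

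**Figure D4:**
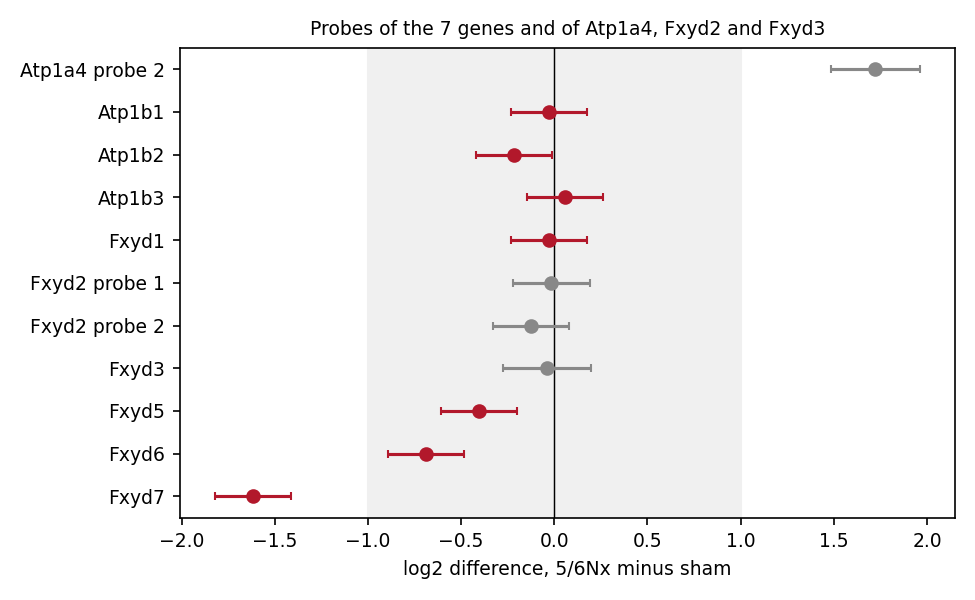
Log2 difference, 5/6Nx minus sham (horizontal axis), of the probes above background on both arrays of the 7 genes (red points) and of Atp1a4, Fxyd2 and Fxyd3 (grey points). Bars are plus and minus the error of the scanner software's model for 1 spot per array, and the grey band marks differences under 2-fold. Fxyd7 (-1.62) lies left of the band and Atp1a4 (1.72) right of it.

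Genes around the pump showed no common direction. Of 12 genes of pump partners and regulators 5 lay above 0, with a median of -0.05. Sgk1, a kinase that raises pump and channel activity in response to corticosteroids, was the only one at least 2-fold apart, at 1.60, with a signal of 16268 in 5/6Nx and 6159 in sham. Wnk4, a kinase of ion transport, stood at -0.54 and the kinase gene Sik1 at -0.50. Of 12 genes of astrocytic potassium handling and sodium-coupled transport 6 lay above 0, with a median of -0.06. The inward rectifier channel gene Kcnj16 was at least 2-fold lower at -1.93, with a signal of 1375 in 5/6Nx and 6041 in sham, while the water channel gene Aqp4 stood at -0.83 and the sodium-calcium exchanger gene Slc8a3 at 0.52. Of 12 other P-type pumps for cations 5 lay above 0, with a median of -0.12. Atp2c2, a calcium and manganese pump of the secretory pathway, was higher at 1.43, the proton-potassium pump gene Atp12a was lower at -1.03, and Atp4a, the gastric proton pump, stood at -0.90. All 3 were dim: the brightest, Atp2c2, had a signal of 224 in 5/6Nx and 95.6 in sham.

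Markers of cells that express these genes moved to different extents. Neuronal markers had a median of -0.24, with 10 of 14 below 0 and 2 at least 2-fold lower, the tubulin gene Tubb3 (-1.48) and the RNA-binding protein gene Elavl4 (-1.03, and -0.78 at its other probe). Their summed signal, in units of the 75th percentile of the array, was 634 in 5/6Nx and 655 in sham. Markers of GABAergic interneurons had a median of -0.52, with 13 of 14 below 0, among them Cort (-1.17) and Pvalb (-1.03, and -0.38 at its other probe), and a summed signal of 213 in 5/6Nx and 324 in sham. Cck (-0.69) was by far the brightest gene of this list, at 142187 in 5/6Nx and 263177 in sham. Lhx6, the 1 member above 0 (0.38), stood at -0.41 at its other probe. The difference of Fxyd7 (-1.62) lay below that of all 14 genes of each list, and that of Fxyd6 (-0.69) within both ranges. Of the glial lists, Fxyd7 lay below all 14 astrocytic markers, but Opalin (-2.30) and Ugt8a (-1.87) of oligodendrocytes and Fcrls (-2.39) of microglia lay lower. The part of neurons, interneurons and glia in the values of Fxyd6 and Fxyd7 was not tested.

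Astrocytic markers, the setting of Atp1b2 and Fxyd1, had a median of -0.04 with 7 of 14 above 0. Their summed signal was 399 in 5/6Nx and 384 in sham. Aldoc (0.07) was by far the brightest gene of this list, at 300311 in 5/6Nx and 329115 in sham. The intermediate filament gene Gfap at 1.12 (its 3 probes between 0.75 and 1.28) and Aqp4 at -0.83 were the members farthest from 0. Oligodendrocyte markers had a median of -0.33 with 10 of 12 below 0, and their farthest members were the myelin gene Opalin (-2.30) and the galactolipid synthesis gene Ugt8a (-1.87). Their summed signal was nonetheless larger in 5/6Nx (293) than in sham (250.0), so median and sum differ in direction. The 2 members above 0, Mobp (1.44) and Ermn (0.81), both named after their values were seen, have probes that disagree. Ermn had a signal of 167119 in 5/6Nx and 109381 in sham, and its other probe stood at -1.22. The 3 Mobp probes ran up to 1.44 and down to about 0. The endothelial list, a setting of Fxyd5, had a median of 0.13 (-0.02 under median scaling and -0.08 under spike-in scaling) with 10 of 12 above 0, and the transporter gene Slco1a4 (0.49) and the cadherin gene Cdh5 (-0.32) were farthest from 0. Its summed signal was 53.3 in 5/6Nx and 49.1 in sham.

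The choroid plexus epithelium secretes cerebrospinal fluid and carries the sodium pump, beta 1 and phospholemman included, in its apical membrane. Its 16 measured markers had a median of 2.11 and a summed signal of 233 in 5/6Nx and 27.6 in sham, led by the transthyretin gene Ttr (6.66) and the chloride channel gene Clic6 (4.90). The 1 member below 0, Slc13a4 (-1.38, named after its value was seen), encodes a sulphate transporter. The claudin gene Cldn2 was above background in 5/6Nx only. Beside this, Atp1b1 (-0.03) and Fxyd1 (-0.03) stood near 0. Leptomeningeal fibroblast markers had a median of -1.99, with all 13 below 0, led by Slc22a6 (-2.61) and Aldh1a2 (-2.59), and a summed signal of 15.3 in 5/6Nx and 55.5 in sham. Leukocyte markers had a median of -0.46 over 9 measured genes of 12 (0.01 over the 2 above the median signal). Of the 9, 3 were at least 2-fold lower and 1 lay above 0. S100a9 (-4.39) and S100a8 (-4.34) were farthest from 0, while Coro1a (-0.01), Cd3e (0.03) and Ptprc (-0.28) lay close to it. The summed signal of the list was 20.9 in 5/6Nx and 23.7 in sham. Coro1a was by far its brightest gene, at 22989 in 5/6Nx and 26688 in sham. Ngp and Ltf were above background in sham only and Ms4a1 on neither array. Red cell markers had a median of -3.55 over 8 genes, led by Hbb-bt (-3.97) and Alas2 (-3.87), with a summed signal of 73.1 in 5/6Nx and 278 in sham. Haemoglobin genes have near-identical copies, so their probes can bind more than 1 transcript. The part of these tissues in the values of Atp1b1, Fxyd1 and Fxyd5 was not tested.

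Of the other cell types, microglial markers had a median of -0.23 with 5 of 12 above 0, and Fcrls (-2.39) and Aif1 (-1.29) were farthest from 0. Mural cell markers had a median of -0.10, with Anpep at -1.33 and Abcc9 at 1.02. Ependymal markers had a median of -0.03, with Rarres2 at -1.33 and Cfap126 at 1.15.

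**Figure D5:**
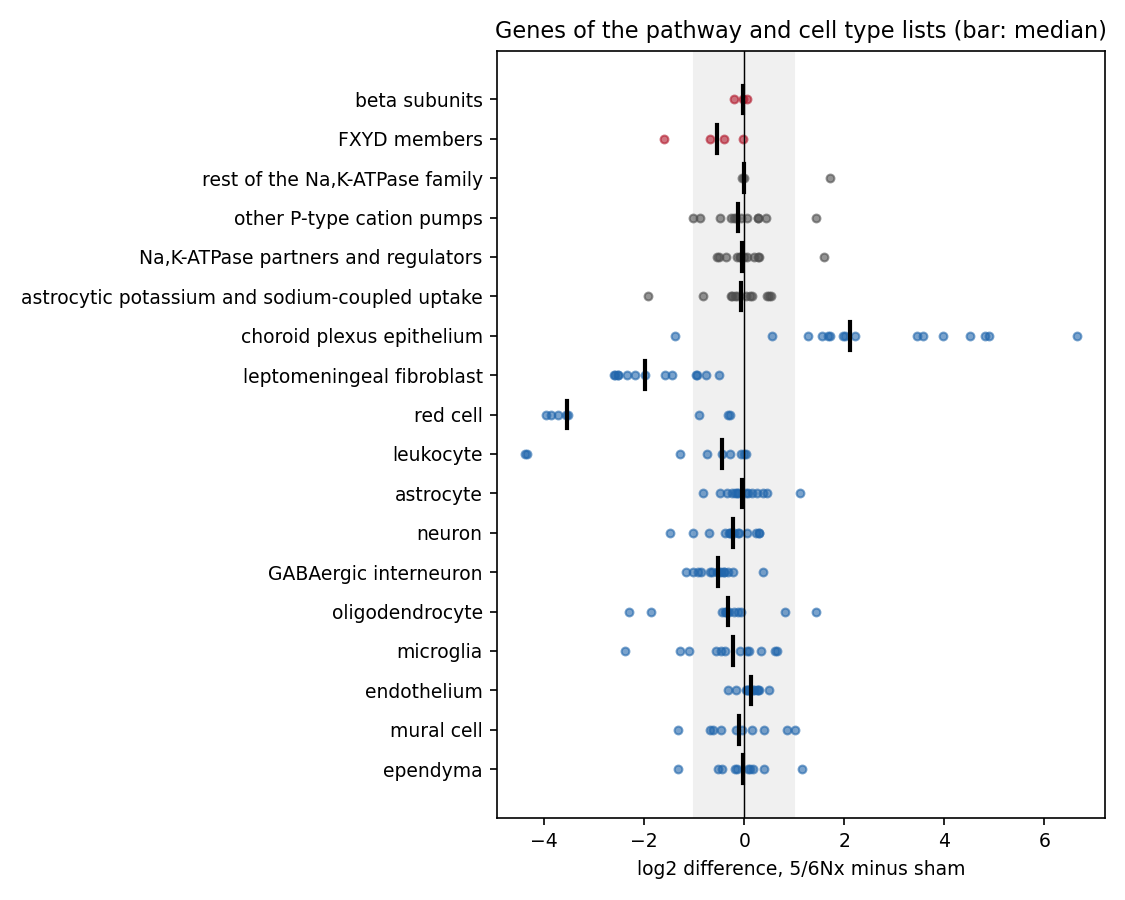
Log2 difference, 5/6Nx minus sham (horizontal axis), of every measured gene of each list (1 point per gene) with the list median as a black bar; red lists hold the 7 genes, dark grey lists the rest of the pathway and blue lists cell type markers. The grey band marks differences under 2-fold. The choroid plexus list lies to the right (median 2.11), the leptomeningeal and red cell lists to the left (medians -1.99 and -3.55), and the pump lists near 0 except for FXYD members (median -0.55).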

How the data were processed

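Per the labels' protocols, total RNA was amplified to labelled cRNA, which was hybridised to 1-colour 60-base arrays. Per the file headers, the authors' scanner output came from Feature Extraction 10.7.1.1 (the submitters' processing notes name 9.5.1.1). Its intensity values are background-subtracted and detrended within each array and not normalized between arrays. The authors also deposited a series table of linear intensity with equal quartiles in both columns, as a quantile normalization gives, which served as an alternative.

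Outlier spots (97 in 5/6Nx, 105 in sham) were left out, none of them of the 7 genes. The log2 signal was set to the array's 75th percentile, and a gene was represented by its brightest probe above background on at least 1 array. Of 55681 probes, 27235 were named by accession, 3581 by symbol and 569 by synonym from mouse RefSeq genes (GRCm38.p6), and 24296 kept the name in the file. For a probe dim on 1 array, a ratio divides the bright value by the dim one or by that array's lowest signal well above background, whichever is larger. That lowest signal is taken over all spots of the array, so the ratio is not a strict lower bound. The members, lists and thresholds were chosen with earlier results of these data known. Named genes were all family members reported here, the 3 farthest from 0 of each pathway list and the 2 farthest of each cell type list. List members above background on fewer than 2 arrays are named too. So are Slc13a4, Ermn, Mobp, Coro1a, Cd3e, Ptprc, Cck, Lhx6 and Aldoc, after their values were seen. Some genes of the lists are not reported here and were left out of them. With 2 arrays no likeness of pattern was computed. Python 3.11.15 and limma 3.58.1 were used. The calculation was tested on simulated data. The number of arrays limits the precision.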

Additional observations from a re-analysis of the deposited data

How the results depend on the processing

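Each group has 1 array, so no array could be left out, and each of the 7 genes has 1 probe, so no other probe could be tried. No paired analysis was possible because there is only 1 array on either side. The alternatives run were quantile, median and spike-in scaling, a lowess fit of the difference on the signal (span 0.3), normexp (offset 50), no background subtraction, the authors' table, the mean over probes, no filter, genes above the median signal and outlier spots kept. The cause of changes was not tested, except where a filter, a threshold or a constant shift sets them. A value counts as moved beyond 0.20, the median SD between probes of 1 gene.

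Spike-in scaling (8 control probes) shifts all genes by 1 constant, to a median of -0.17 (median scaling gives -0.11), and was the only alternative that moved the 7 genes beyond that: Atp1b1 to -0.25, Atp1b2 to -0.43, Atp1b3 to -0.16, Fxyd1 to -0.25, Fxyd5 to -0.62, Fxyd6 to -0.91 and Fxyd7 to -1.83. List medians became -0.43 for the 7 genes, -0.25 for beta subunits, -0.77 for FXYD members, -0.23 for the other genes of the family, -0.34 for other P-type pumps, -0.27 for partners and regulators and -0.28 for astrocytic uptake. All 12 cell type medians moved by the same constant. Among genes above the median signal the leukocyte median was 0.01 (2 genes), the mural median -0.46 (7 genes) and the choroid plexus median 1.86 (8 genes). Normexp moved the leptomeningeal median to -1.67 and the red cell median to -3.16, and no background subtraction to -1.57 and -3.06. Fxyd7 was the only one of the 7 at least 2-fold lower under every alternative. At 1.5-fold 2 were lower as scaled here, and Fxyd5 passed that size under spike-in scaling only. Genes at least 2-fold higher and lower numbered 1268 and 852 as reported, 793 and 1414 with spike-in scaling, 999 and 1039 after lowess, 1009 and 1034 in the authors' table, 683 and 497 by normexp, 635 and 468 without background subtraction, 2590 and 1668 without a filter, 318 and 305 among genes over the median signal, 3549 and 2313 at 1.5-fold, and 387 and 245 at 3-fold. Signal over background limits what the dim probes of Atp1a4 and Fxyd3 show.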
